A study of Homo sapiens with 6 samples.

Results

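The genes described here encode the proteins of the cytosolic ribosome, the particle that translates mRNA in the cytoplasm. They were chosen by name, as genes on the array's annotation whose symbol is RPL (large subunit) or RPS (small subunit) followed by a number; S6 kinases, pseudogenes and antisense genes were left out. The rule found 59 genes of 19775, 37 RPL and 22 RPS, each represented by its brightest probe set that names 1 gene. Of these, 57 were bright enough to be tested among 13506 genes, with a mean over the arrays of at least 5 log2 units. RPL36A averaged 3.69 log2 units and RPL3L, a muscle paralogue of RPL3, averaged 4.69, and neither was tested. A further 24 protein-coding genes of this name pattern in RefSeq, RPL5 and RPL10 among them, had no probe set that names them alone and were not analysed here.

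The samples were A375 cells, a human melanoma line with an activated BRAF kinase. All were CRISPR knockouts of eIF4B, a cofactor of the helicase that opens mRNA for ribosome binding, into which a lentivirus had brought LacZ as a negative control (KO/LacZ) or eIF4B (KO/eIF4B, rescued cells, which the labels also call WT). The treatments were vehicle (DMSO) and 6 h or 18 h of vemurafenib, an inhibitor of mutant BRAF, at 10 µM. There was 1 array per line and treatment, 6 in all, and the time of the vehicle arrays is not given, so drug and time in culture cannot be told apart. The 6 h and 18 h comparisons share the vehicle arrays. Whether a line is 1 clone, and whether arrays came from separate cultures, is not given in the sources used here, so p-values measure only the spread between these arrays. Parental A375 cells were not analysed here.

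A ribosome joins a large and a small subunit, each built in the nucleolus from ribosomal RNA and one copy of nearly every ribosomal protein. The mRNAs of these proteins begin with a C followed by a run of pyrimidines, the 5' terminal oligopyrimidine (TOP) tract. Through it, mTOR and LARP1 adjust their translation together. Growing cells, tumour cells among them, hold these mRNAs at very high levels. Paralogues such as RPL22L1 and RPS27L resemble a core protein and are used in fewer tissues or conditions. eIF4B is itself among the TOP mRNAs.

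The tract can be read at the start sites of the members that the results turn on. In RefSeq's windows of GRCh38.p14, from 250 bases before to 50 bases after each start, 49 members were matched. RPL7, RPL8, RPL23A, RPL30, RPL37, RPL39L and RPS15A were not matched. RPS4Y1, on chromosome Y, was left out here, and its values are not given below although the counts include it. Each sequence holds 40 bases before the start and the first 15 transcribed bases, 5' to 3', and for a gene with several starts the one with the longest run is shown. Capitals mark the run of pyrimidines that begins with a C at the start base, or the start base alone where it is no C. The first 5 genes changed or differed in a comparison below, RPL41 and RPS6 show the tract of bright members, and the last 5 are paralogues.
RPL3 (chr22:39319609-39319663, minus strand): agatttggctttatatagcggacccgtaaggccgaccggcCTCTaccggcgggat
RPS9 (chr19:54200818-54200872, plus strand): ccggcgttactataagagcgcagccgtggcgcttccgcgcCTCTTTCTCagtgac
RPL12 (chr9:127451392-127451446, minus strand): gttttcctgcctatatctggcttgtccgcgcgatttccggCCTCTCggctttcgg
RPL31 (chr2:101002249-101002303, plus strand): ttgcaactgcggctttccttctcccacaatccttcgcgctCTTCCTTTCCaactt
RPL22 (chr1:6199581-6199635, minus strand): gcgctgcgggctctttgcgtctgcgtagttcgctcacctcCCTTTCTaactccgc
RPL41 (chr12:56116593-56116647, plus strand): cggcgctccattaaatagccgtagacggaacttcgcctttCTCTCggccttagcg
RPS6 (chr9:19380222-19380276, minus strand): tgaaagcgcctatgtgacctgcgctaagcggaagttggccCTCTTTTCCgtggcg
RPL22L1 (chr3:170870181-170870235, minus strand): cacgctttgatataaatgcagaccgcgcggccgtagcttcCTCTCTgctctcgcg
RPS27L (chr15:63157463-63157517, minus strand): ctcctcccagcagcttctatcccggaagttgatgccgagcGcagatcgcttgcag
RPL7L1 (chr6:42879576-42879630, plus strand): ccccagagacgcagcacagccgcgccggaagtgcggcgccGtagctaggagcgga
RPL10L (chr14:46651767-46651821, minus strand): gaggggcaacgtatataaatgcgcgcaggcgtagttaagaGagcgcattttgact
RPL26L1 (chr5:172958689-172958743, plus strand): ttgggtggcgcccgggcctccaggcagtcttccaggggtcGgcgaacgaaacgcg

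A start base C followed by at least 4 pyrimidines stood at a start of 32 of the 49 matched members (65.3%), against 1404 of 27305 symbols in the whole table (5.14%). Core members held it in 31 of 43 cases (72.1%). Of 6 matched paralogues only RPL22L1 did (16.7%). RPS27L, RPL7L1, RPL10L and RPL26L1 begin with G at the starts shown. RPL3 has a C and 3 more pyrimidines and so fell 1 base short of the rule. The motif CCGGAAG, the core that ETS-type factors such as GABPA bind, was searched on both strands of the same 300 bases, with no exclusion of overlap with the tract. It occurred in 18 of the 49 members (36.7%) and in 12.2% of all symbols. RPS27L and RPL7L1 are among the 18. A match describes the letters only.

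The eIF4B label was checked first. EIF4B mRNA read 8.40, 8.53 and 8.53 (log2) in KO/LacZ cells and 10.07, 10.14 and 10.28 in KO/eIF4B cells, a difference of -1.68 (limma, adjusted p = 0.0056). Signal of the added copy and of the edited gene cannot be told apart in it. The melanoma markers SOX10, MITF and AXL averaged 10.27, 9.18 and 11.44 log2 units, and 10 of 12 measured melanoma markers lay above the limit of 5. The pigment genes MLANA (4.88) and TYRP1 (3.55) did not. EPCAM (2.60) and CDH1 (3.14) of epithelia, PDGFRA (4.31) and COL1A2 (4.72) of fibroblasts and PTPRC (3.05) of blood cells were below it too, while other markers were above: 4 of 6 epithelial, 3 of 5 fibroblast and 3 of 4 measured blood markers. The log2 of the summed level of all fibroblast markers ran between 8.70 and 10.33 over the arrays, that of melanoma markers between 12.40 and 12.64, that of epithelial markers between 12.27 and 12.95, and that of blood markers between 7.87 and 8.27. At 18 h the fibroblast markers LUM and DCN rose by 2.49 and 1.78 while COL1A1 changed by 0.017, the keratins KRT14 and KRT8 rose by 1.45 and 0.39 and KRT18 fell by 0.78, and LYZ of blood cells fell by 0.86. Of the 10 tested melanoma markers 3 rose and 2 fell, beside 51.4% of all genes called. MITF changed by 1.63, CSPG4 by -0.74 and MCAM by -0.63, while SOX10 (-0.11) and AXL (-0.13) were not called. Their part in the results was not tested. The 3' minus 5' difference of control probe sets lay between -0.01 and 0.04 for GAPDH and between 0.13 and 0.18 for ACTB. In bulk RNA, fewer cells of a type and less RNA per cell cannot be told apart.

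Ribosomal protein mRNAs were among the brightest signals on the arrays. Their median mean level was 13.56 log2 units, against 7.72 over all tested genes, and 46 of the 100 tested genes with a mean of at least 13 were members. RPL41, which encodes a very short basic peptide, averaged 14.18, the highest of all named genes. The highest value of any probe set on any array was 14.21, so the brightest members lay at the top of the measured range. Only 7 of the 57 lay below 12. In 43 of the 57 the probe set carries a suffix (_s_at or _x_at) that warns of matches to more than 1 transcript, so signal from pseudogene transcripts cannot be told apart.

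After 6 h of vemurafenib, none of the 57 members was called in the additive limma model (0 at adjusted p under 0.05, and 0 at unadjusted p under 0.05). Of all tested genes, 16.2% were called, and 4420 of 13506 had an unadjusted p under 0.05. The members' median change was 0.0057 log2 units, against 0.029 over all genes, with 37 members above 0 and 20 below. RPL27A, a large-subunit protein, stood highest at 0.12, and its arrays read 9.67 with vehicle, 9.77 at 6 h and 9.79 at 18 h in KO/LacZ cells, and 9.54, 9.68 and 9.75 in KO/eIF4B cells. RPL39L, a paralogue of the exit-tunnel protein RPL39, stood lowest at -0.14, of which KO/LacZ cells gave -0.29 and KO/eIF4B cells 0.0031. With a variance prior that follows intensity, RPL3 alone was called at 6 h (0.11, SE 0.033, limma adjusted p = 0.048), against 22.9% of all genes.

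At 18 h, 4 members rose and 1 fell, in both lines each time. The risers were RPL3, which helps to form the peptidyl transferase centre, RPS9, a small-subunit protein near the mRNA entry channel, and the paralogues RPL22L1 and RPS27L. RPL7L1, a relative of RPL7 found in large-subunit precursors, fell. These 5 calls among 57 compare with 51.4% of all tested genes called at 18 h, 28.1% higher and 23.3% lower, so the members' share was below the background. At an unadjusted p under 0.05 there were 9, against 7775 of all 13506 genes.

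RPL3 read 13.16 with vehicle, 13.32 at 6 h and 13.52 at 18 h in KO/LacZ cells, and 13.15, 13.21 and 13.51 in KO/eIF4B cells. Both 18 h arrays lay above the other 4. The change was 0.36 log2 units, 1.29-fold (SE 0.063, limma adjusted p = 0.0065), the largest rise among the members. RPS9 read 13.08 with vehicle, 13.11 at 6 h and 13.31 at 18 h in KO/LacZ cells, and 13.02, 13.11 and 13.23 in KO/eIF4B cells. It was again highest on both 18 h arrays, by 0.22 over vehicle (SE 0.06, limma adjusted p = 0.031). RPL22L1, whose product resembles the RNA-binding protein RPL22, read 11.79 with vehicle, 11.90 at 6 h and 12.06 at 18 h in KO/LacZ cells, and 11.55, 11.61 and 11.79 in KO/eIF4B cells. It increased within each line, by 0.26 in KO/LacZ cells and 0.24 in KO/eIF4B cells, a mean of 0.25 (SE 0.058, limma adjusted p = 0.017), but the KO/eIF4B array at 18 h did not exceed the KO/LacZ vehicle array. RPS27L, a paralogue of RPS27 that p53 can induce, read 12.60 with vehicle, 12.69 at 6 h and 12.81 at 18 h in KO/LacZ cells, and 12.67, 12.76 and 13.01 in KO/eIF4B cells. It rose by 0.28 (SE 0.065, limma adjusted p = 0.018), and both 18 h arrays exceeded all others. RPL7L1 read 11.76 with vehicle, 11.74 at 6 h and 11.30 at 18 h in KO/LacZ cells, and 11.74, 11.58 and 11.40 in KO/eIF4B cells. Its change of -0.40, a fold of 0.76 (SE 0.082, limma adjusted p = 0.012), was the only fall called, and both 18 h arrays lay below the other 4.

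**Figure D1:**
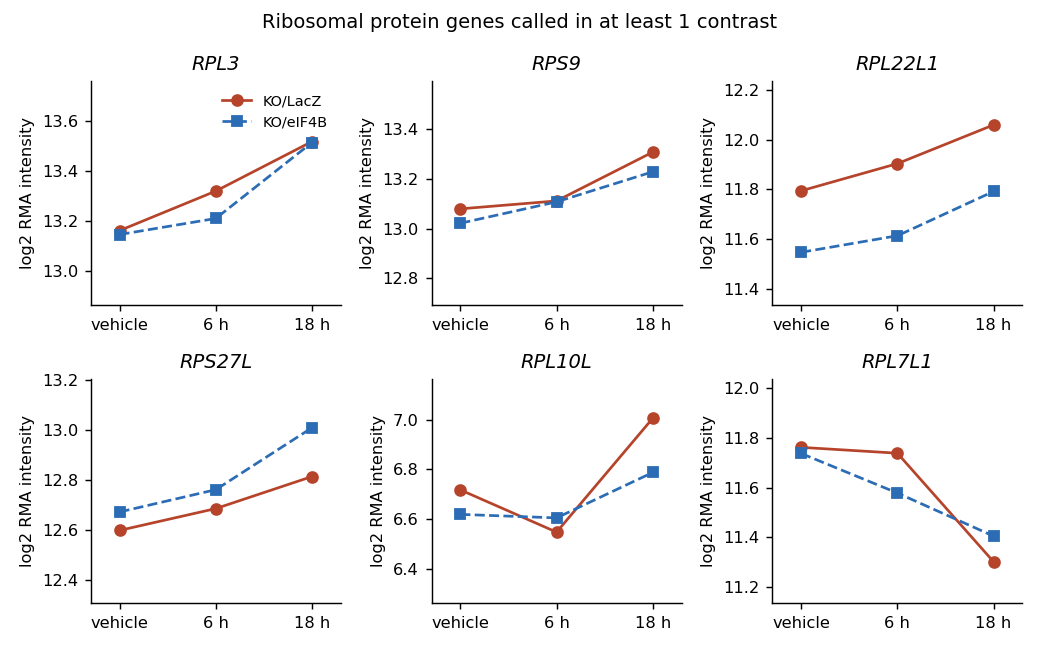
Level (log2 RMA intensity) of the 6 members called in at least 1 contrast, by treatment, 1 array per point, with KO/LacZ as circles and KO/eIF4B as squares. Each panel spans 0.9 log2 units; RPL3, RPS9, RPL22L1 and RPS27L are higher at 18 h than with vehicle in both lines, and RPL7L1 is lower.

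Most other members had small positive changes that were not called. Of all 57, 51 lay above 0 at 18 h, with a median of 0.059 against 0.0087 over all tested genes. Both lines were higher at 18 h than with vehicle in 48 members, where 43.7% of all genes were higher in both, and both were lower in 5, where 40.5% of all genes were. The direction rests on the scaling and on the rows that set it. Over all 54675 probe sets the array medians lay between 5.20 and 5.22. Although the median of the genes' changes was near 0, the median level of the tested genes was 0.10 higher on the 18 h arrays. Centring each array on that median level turned the members' median to -0.042, with 14 members above 0 and 43 below. It took the same 0.10 from the change of every gene, so the members' place relative to other genes stayed as it was. RPL3 (0.26, limma adjusted p = 0.035) and RPL7L1 (-0.50, limma adjusted p = 0.0068) were then the only calls, where 52.8% of all genes were called. The calls of RPS9, RPL22L1 and RPS27L were lost. A smaller correction, on the median of the tested probe sets, is used below for further probe sets and was not applied to the members' median.

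The other members with the highest changes at 18 h were not called. RPL10L, whose arrays are given with the 18 h against 6 h comparison, changed by 0.23 against vehicle (SE 0.084, limma adjusted p = 0.072), RPL27A by 0.16 and RPL36 by 0.14. RPL12, which forms the base of the large-subunit stalk, read 13.81 with vehicle, 13.84 at 6 h and 13.94 at 18 h in KO/LacZ cells, and 13.65, 13.72 and 13.86 in KO/eIF4B cells, a change of 0.17 (SE 0.06, limma adjusted p = 0.063). Both 18 h arrays were the highest of the 6. RPL29 read 13.41 with vehicle, 13.44 at 6 h and 13.56 at 18 h in KO/LacZ cells, and 13.41, 13.47 and 13.55 in KO/eIF4B cells, and both 18 h arrays were above the other 4 (a change of 0.15). RPL14 read 13.09 with vehicle, 13.14 at 6 h and 13.24 at 18 h in KO/LacZ cells, and 13.12, 13.13 and 13.23 in KO/eIF4B cells. RPL31, at the exit of the peptide tunnel, read 13.32 with vehicle, 13.35 at 6 h and 13.49 at 18 h in KO/LacZ cells, and 13.28, 13.26 and 13.39 in KO/eIF4B cells. Both genes were highest at 18 h in each line, with changes of 0.13 and 0.14.

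Among those lowest at 18 h, RPL39, a protein of the exit tunnel, read 13.90 with vehicle, 13.86 at 6 h and 13.89 at 18 h in KO/LacZ cells, and 13.89, 13.91 and 13.83 in KO/eIF4B cells. RPL35, at the tunnel's exit, read 13.56 with vehicle, 13.53 at 6 h and 13.54 at 18 h in KO/LacZ cells, and 13.54, 13.52 and 13.52 in KO/eIF4B cells. RPS7, which can bind MDM2, read 13.67 with vehicle, 13.62 at 6 h and 13.64 at 18 h in KO/LacZ cells, and 13.65, 13.66 and 13.63 in KO/eIF4B cells. These 3 genes spanned less than 0.1 log2 units over all arrays, and their changes of -0.03, -0.024 and -0.022 were not called. RPS21 read 13.94, 13.97 and 13.97 in KO/LacZ cells and 13.92, 13.97 and 13.96 in KO/eIF4B cells in the order vehicle, 6 h, 18 h. RPL7 read 13.86, 13.87 and 13.86 in KO/LacZ cells and 13.87, 13.87 and 13.88 in KO/eIF4B cells, and RPS15A read 13.66, 13.66 and 13.70 in KO/LacZ cells and 13.67, 13.64 and 13.69 in KO/eIF4B cells. RPS21 was lowest on both vehicle arrays and RPS15A highest on both 18 h arrays, each by under 0.05, the RPL7 groups overlapped, and no contrast was called.

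With the prior that follows intensity, 22 members were called at 18 h, 21 higher and 1 lower, against 54.1% of all genes. Beyond the 5 above they include RPL12 (0.17, SE 0.027, limma adjusted p = 0.0012), RPL29, RPL36, RPL31, RPL14, RPL8, RPL19 and RPS3, the last one a protein of the small-subunit head. That prior gives bright genes smaller standard errors, from 0.024 for RPL19 here against 0.058 in the additive model. The share of members called stayed below that of all genes under both.

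**Figure D2:**
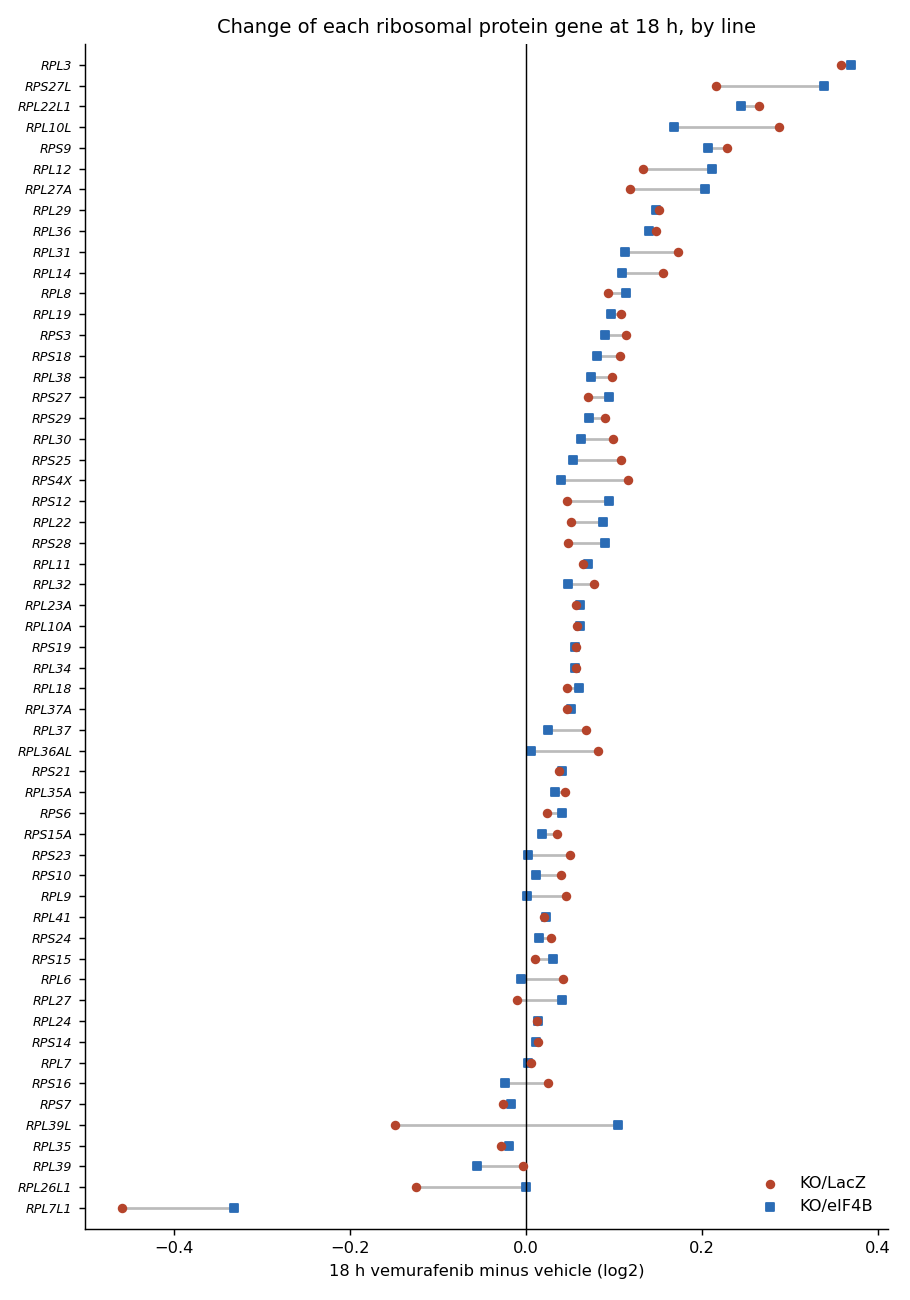
Change at 18 h of vemurafenib over vehicle (log2) for each member except RPS4Y1, sorted by its mean, with KO/LacZ as circles, KO/eIF4B as squares and a grey line joining the lines. Most members lie between 0 and 0.2 in both lines; RPL3 is highest and RPL7L1 lowest, and RPL39L is below 0 in KO/LacZ cells and above 0 in KO/eIF4B cells.

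Between the drug times, 3 members were called at 18 h against 6 h, where 34.0% of all genes were called. RPL10L, a retrogene copy of RPL10 that replaces it in mouse male germ cells, read 6.72 with vehicle, 6.55 at 6 h and 7.01 at 18 h in KO/LacZ cells, and 6.62, 6.61 and 6.79 in KO/eIF4B cells. Both 18 h arrays lay above the other 4, and the change from 6 h was 0.32 (SE 0.084, limma adjusted p = 0.038). RPL3 was higher by 0.25 (SE 0.063, limma adjusted p = 0.034) and RPL7L1 differed by -0.30 (SE 0.082, limma adjusted p = 0.041). The members' median was 0.048, with 51 of 57 above 0, against -0.0004 over all genes. Centring on the median level of the tested genes, which was 0.10 higher at 18 h than at 6 h, turned it to -0.052. Then 11 members were above 0. The same shift was taken from every gene, so the members' place relative to other genes did not change. Only RPL7L1 was still called (1), where 36.8% of all genes were. With the intensity prior 17 members were called, against 39.2% of all genes.

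Of the 8 paralogues tested, 2 rose and 1 fell at 18 h, and of the 49 core members 2 rose and 0 fell. Of all tested genes 28.1% rose and 23.3% fell, so nothing particular to either group is read from these counts. After centring on the tested genes, only the core member RPL3 and the paralogue RPL7L1 were called, beside 52.8% of all genes. RPL26L1, nearly the same protein as RPL26, read 11.60 with vehicle, 11.54 at 6 h and 11.47 at 18 h in KO/LacZ cells, and 11.58, 11.62 and 11.58 in KO/eIF4B cells. Its lowest array was KO/LacZ at 18 h, and the change of -0.063 was not called (SE 0.064, limma adjusted p = 0.46). RPL36AL, nearly the same protein as RPL36A, read 12.12 with vehicle, 12.05 at 6 h and 12.20 at 18 h in KO/LacZ cells, and 12.06, 12.03 and 12.07 in KO/eIF4B cells, which differ by less than 0.2 log2 units. RPL39L, which serves ribosomes of male germ cells in mouse, read 6.89 with vehicle, 6.60 at 6 h and 6.74 at 18 h in KO/LacZ cells, and 6.94, 6.95 and 7.05 in KO/eIF4B cells. KO/LacZ cells were lower with vemurafenib at both times, and KO/eIF4B cells were not. The paralogues RPL10L and RPL39L are also dim here, averaging 6.71 and 6.86, against core members between 9.70 and 14.18. Over the 49 core members, the size of the 18 h change was smaller where the level was higher (Spearman rho -0.50, Pearson r -0.38, a description over genes that share the same 6 arrays).

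The lines were compared over the 3 pairs of arrays. None of the members was called between KO/LacZ and KO/eIF4B cells in the limma model (0 of 57, and 2 at unadjusted p under 0.05), where 2.50% of all genes were called. Of all 13506 genes, 3101 had an unadjusted p under 0.05. The median was 0.020 higher in KO/LacZ cells, against 0.0041 over all genes, with 44 members above 0. In 28 members KO/LacZ was higher in all 3 pairs, which 25.9% of all genes were. In 5 it was lower in all 3, which 2857 of all 13506 genes were. Centring turned the members' median as well, to -0.017 with 18 members above 0. It took the same 0.037 from the line difference of every gene, so the members' place relative to other genes stayed as it was.

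RPL22L1 had the largest line difference, 0.25 with vehicle, 0.29 at 6 h and 0.27 at 18 h, KO/LacZ minus KO/eIF4B. Its mean of 0.27 missed the threshold (SE 0.048, limma adjusted p = 0.063), and it passed with the intensity prior (SE 0.028, limma adjusted p = 0.0041). RPL12 differed by 0.12 and RPL19, which bridges the subunits, by 0.09, again higher in KO/LacZ in all 3 pairs. RPL19 read 13.57 with vehicle, 13.56 at 6 h and 13.67 at 18 h in KO/LacZ cells, and 13.49, 13.46 and 13.58 in KO/eIF4B cells. Both passed only with the intensity prior, limma adjusted p = 0.021 for RPL12 and 0.036 for RPL19, where 3 members in all and 8.66% of all genes were called. RPL39L was lower in KO/LacZ in all 3 pairs, by a mean of -0.24 (SE 0.074, limma adjusted p = 0.15), and RPS27L likewise, by -0.12.

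Other line differences in the core were small and not called. RPL24, which forms a bridge between the subunits, read 13.50 with vehicle, 13.47 at 6 h and 13.52 at 18 h in KO/LacZ cells, and 13.51, 13.52 and 13.53 in KO/eIF4B cells. RPL32 read 13.54 with vehicle, 13.53 at 6 h and 13.62 at 18 h in KO/LacZ cells, and 13.58, 13.58 and 13.63 in KO/eIF4B cells, and RPL6 read 13.53, 13.53 and 13.57 in KO/LacZ cells and 13.56, 13.59 and 13.56 in KO/eIF4B cells. These 3 were the core members lowest in KO/LacZ relative to KO/eIF4B, with differences of -0.023, -0.033 and -0.025. RPL27A was higher by 0.09 and RPL31 by 0.072.

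**Figure D3:**
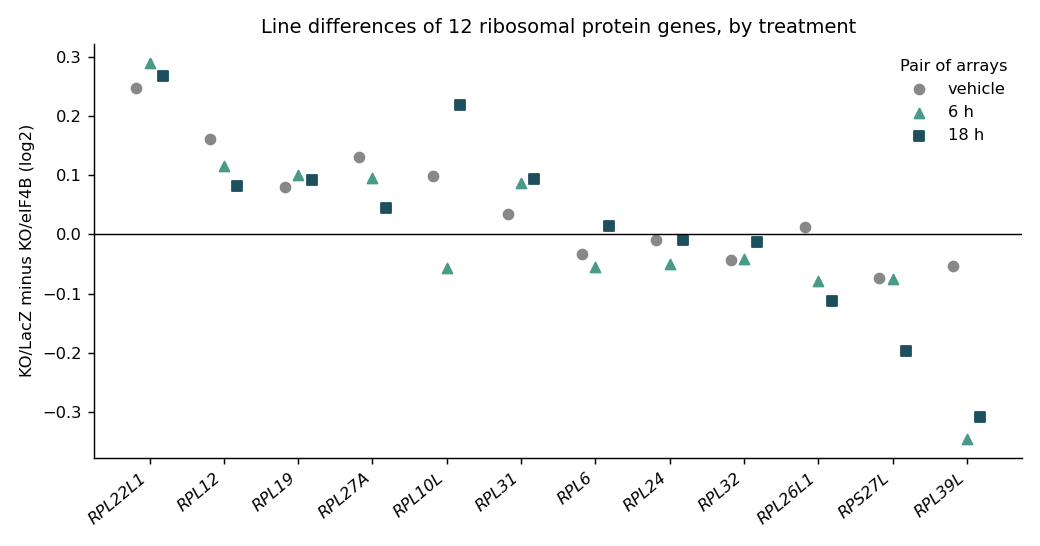
KO/LacZ minus KO/eIF4B (log2) in the vehicle, 6 h and 18 h pairs of arrays for the 6 members with the highest and the 6 with the lowest mean line difference. RPL22L1 lies between 0.25 and 0.29 in all 3 pairs, and RPL39L and RPS27L lie below 0 in all 3.

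Whether the lines responded differently was tested with a term shared by 6 h and 18 h, which has 1 residual degree of freedom. No gene was called (0 of 13506 in limma, 302 at unadjusted p under 0.05, and 0 members at either). The members' median was 0.0031. RPL39L had the lowest value, -0.27 (SE 0.14, limma adjusted p = 1). RPS4X, the X-encoded copy of a small-subunit protein, was highest at 0.064 and read 13.72 with vehicle, 13.77 at 6 h and 13.84 at 18 h in KO/LacZ cells, and 13.74, 13.73 and 13.78 in KO/eIF4B cells. RPS25, needed for initiation on some viral internal entry sites, read 13.42 with vehicle, 13.42 at 6 h and 13.53 at 18 h in KO/LacZ cells, and 13.43, 13.41 and 13.48 in KO/eIF4B cells, with a term of 0.035. RPL9 read 13.67, 13.70 and 13.71 in KO/LacZ cells and 13.69, 13.67 and 13.69 in KO/eIF4B cells, and RPS28 read 13.54, 13.54 and 13.59 in KO/LacZ cells and 13.44, 13.50 and 13.53 in KO/eIF4B cells. Of the members named here, RPL39L and RPL26L1 alone had terms over 0.1 in size (RPL26L1 -0.11).

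Dimmer probe sets of the same genes gave larger changes for some members. The 57 genes had 53 further probe sets above the limit, over 30 genes, all dimmer than the set that represents the gene, as the rule requires. In a fit over all 29345 probe sets, chosen after the values were seen, 14 of these 53 rose at 18 h and 1 fell, against 47.3% of all probe sets called. At 6 h 4 rose (13.2% of all called), from 6 h to 18 h 9 rose (29.2% of all), and between the lines 4 were higher in KO/LacZ and 0 lower (1.35% of all). Their median change at 18 h was 0.12, against 0.059 for the brightest probe sets. With each array centred on the median of these 29345 probe sets, 11 of the 53 were higher and 1 lower at 18 h, and 5 were higher in KO/LacZ. The share of all probe sets called after it is not given here. It is a smaller correction than the centring on tested genes used above, and moved the median of the 53 from 0.12 to 0.074. The RPL31, RPL37, RPS15A, RPL22 and RPS23 sets named next stayed higher at 18 h, by 0.55 to 1.61.

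A dim RPL31 probe set read 6.07 with vehicle, 6.44 at 6 h and 7.63 at 18 h in KO/LacZ cells, and 5.88, 6.22 and 7.61 in KO/eIF4B cells. Both 18 h arrays exceeded all others by over 1 log2 unit, and the change was 1.65, 3.14-fold (SE 0.077, limma adjusted p = 0.0002), where the brightest RPL31 probe set changed by 0.14. A dim RPL37 probe set, of a zinc-binding large-subunit protein, read 7.34 with vehicle, 7.67 at 6 h and 8.85 at 18 h in KO/LacZ cells, and 6.69, 7.19 and 8.21 in KO/eIF4B cells. It rose by 1.51 at 18 h (SE 0.076, limma adjusted p = 0.00022), and a second RPL37 set rose by 0.91. For RPS29, a small-subunit head protein, a set near the limit read 4.57 with vehicle, 5.18 at 6 h and 5.86 at 18 h in KO/LacZ cells, and 4.58, 4.63 and 5.90 in KO/eIF4B cells. Both vehicle arrays and the KO/eIF4B array at 6 h lay below the limit of 5, so it passed through its higher arrays and its change is given as these values only. The counts of 14 at 18 h, of 9 from 6 h to 18 h and of 11 after centring include it. For all 3 sets both 18 h arrays lay above the other 4, and each line was above its vehicle array at 6 h.

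RPS15A, RPL22 and RPS23, a protein of the decoding centre, had such sets too. The RPS15A set read 8.20 with vehicle, 8.50 at 6 h and 9.05 at 18 h in KO/LacZ cells, and 7.46, 7.77 and 8.34 in KO/eIF4B cells. It was higher at 18 h by 0.86 (limma adjusted p = 0.00052) and higher in KO/LacZ by 0.73 (limma adjusted p = 0.029). The RPL22 set, at a mean of 10.79, read 10.69 with vehicle, 10.93 at 6 h and 11.43 at 18 h in KO/LacZ cells, and 10.22, 10.55 and 10.94 in KO/eIF4B cells, higher at 18 h by 0.73 and in KO/LacZ by 0.45 (limma adjusted p = 0.0009 and 0.041). RPS23 rose by 0.60 at 18 h (SE 0.087, limma adjusted p = 0.0036), and the RPL37 set whose arrays are given above and one of RPL35A were higher in KO/LacZ by 0.59 and 0.45. A dim RPS15 set fell by 0.25 at 18 h (SE 0.076, limma adjusted p = 0.042). Of the brightest sets of these genes, 0 were called in any contrast of the additive model.

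By level, and without RPS4Y1, the median 18 h change was 0.19 for the 24 member probe sets between 5 and 8 log2 units, 0.18 for the 9 between 8 and 10, 0.15 for the 8 between 10 and 12, 0.14 for the 6 between 12 and 13, and 0.050 for the 62 above 13. In 19 of the 30 genes with several sets the dimmest one had a higher change, with its sign, than the brightest, and in 25 every set was above 0. Both counts, and the band between 5 and 8, include the RPS29 set that passed the limit through its higher arrays. The positions of the probe sets along their transcripts were not used here, and their part in these differences was not tested.

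**Figure D4:**
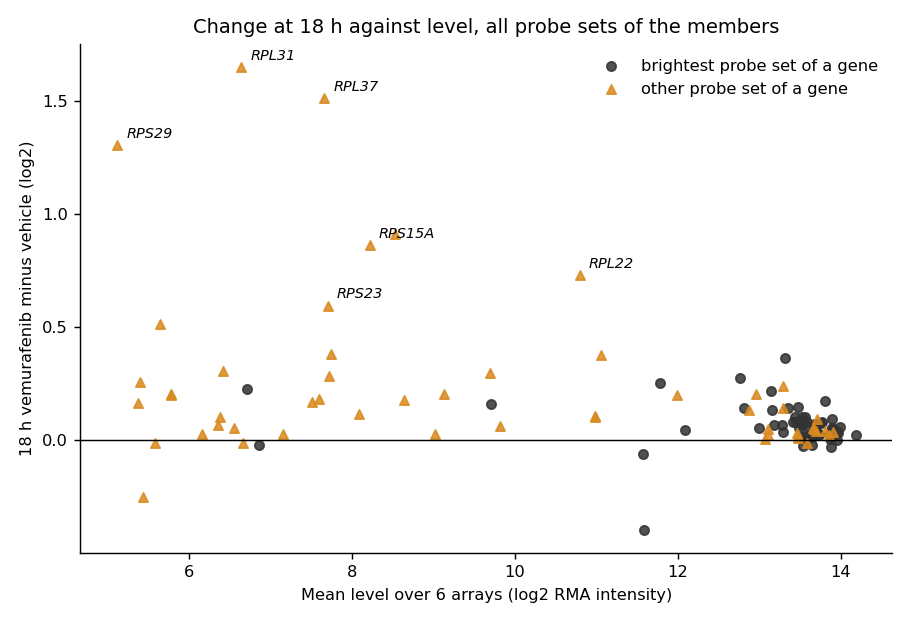
Change at 18 h of vemurafenib over vehicle (log2) against the mean level over 6 arrays (log2 RMA intensity), for the brightest probe set of each member (circles) and its other probe sets (triangles), without RPS4Y1. The brightest sets crowd near 0 above a level of 13, and dimmer sets of RPL31, RPL37, RPS15A, RPL22 and RPS23 rise by 0.60 to 1.65; the labelled RPS29 set lay below the limit of 5 on both vehicle arrays.

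Other genes tied to ribosomal proteins were set beside them at 18 h. The lists were picked by function. Their counts stand beside 51.4% of all genes called at 18 h, 28.1% higher and 23.3% lower. After centring, which lowered the change of every gene by 0.10, the share was 52.8%. Its split by direction is not given here. Of 17 tested mRNAs of the TOP class outside the ribosome, 7 rose and 0 fell at 18 h, with a median of 0.16, and 1 was higher after centring, with a median of 0.061. EIF2S3, a subunit of the factor that brings the initiator tRNA, rose by 0.41 (SE 0.059, limma adjusted p = 0.0036), and EIF3F, EEF2 and EIF3H rose by 0.31, 0.28 and 0.27. Ribosomal proteins of mitochondria, which translate the mitochondrial genome, went mainly the other way, 31 of 75 lower and 7 higher, with a median of -0.18 (42 and 3 after centring). Chaperones and modifiers of ribosomal proteins fell in 11 of 17 cases and rose in 0, with a median of -0.37. BCCIP, a partner of RPL23, fell by 0.96 and LTV1, a small-subunit assembly factor, by 0.91. PDCD2L fell by 0.87 and ZNF598, which tags RPS10 on collided ribosomes, by 0.73. GRWD1, the chaperone of RPL3, fell by 0.72 (SE 0.06, limma adjusted p = 0.00074) while RPL3 itself rose.

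**Figure D5:**
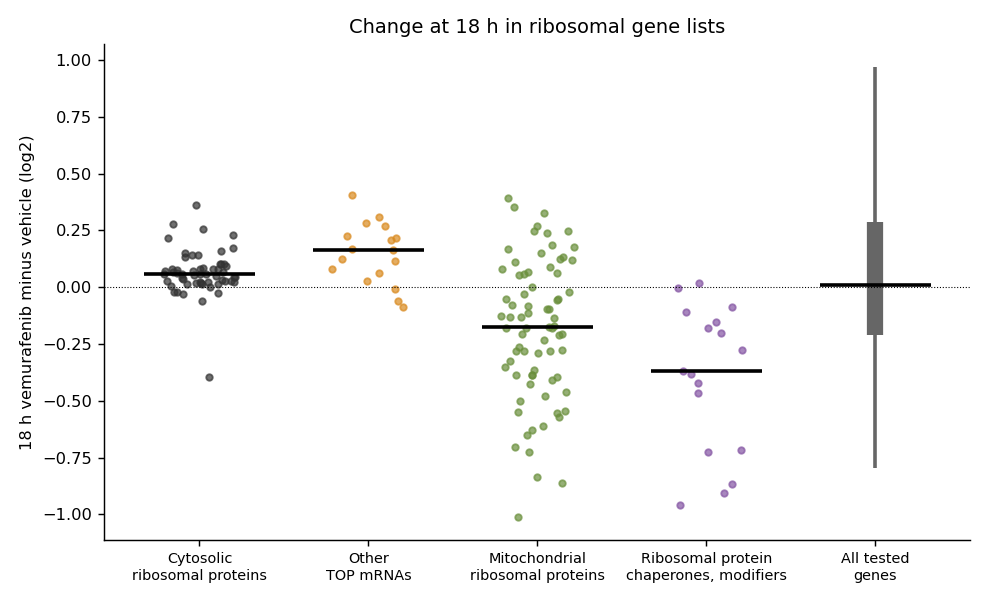
Change at 18 h of vemurafenib over vehicle (log2) for cytosolic ribosomal proteins (without RPS4Y1), other TOP mRNAs, mitochondrial ribosomal proteins and ribosomal protein chaperones and modifiers, 1 point per tested gene with a bar at the median. All tested genes are drawn as the 5th to 95th percentile (thin, -0.79 to 0.97) and the 25th to 75th (thick, -0.21 to 0.29); all cytosolic members but RPL7L1 lie between -0.063 and 0.36.

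Regulators of the members' transcription and translation are set beside the 51.4% of all genes called at 18 h, and nothing particular to them is read from their counts. Among 8 transcription factors linked to ribosomal protein genes, 5 fell and 0 rose at 18 h. MYC, which drives ribosome production, read 9.27, 7.04 and 5.64 in KO/LacZ cells and 9.18, 7.43 and 6.24 in KO/eIF4B cells. It fell by 2.0 at 6 h and fell by 3.29 at 18 h (SE 0.17, limma adjusted p = 0.00028), and GABPB1, the partner of GABPA, fell by 1.11 at 18 h. Of 15 tested regulators of TOP translation, 5 rose and 6 fell at 18 h, with a median of 0.0015 against 0.0087 over all genes. LARP1B fell by 1.18, LARP4 by 0.87 and LARP1, the TOP-binding repressor, by 0.31, while TSC1 rose by 0.66, EIF4EBP2 by 0.47, MTOR by 0.40 and TSC2 by 0.36. In the p53 loop that senses free ribosomal proteins, CDKN1A rose by 0.44 and MDM2 by 0.24, 2 of 5 tested. The ribosomal subunits outside the name rule, RPLP1, RPLP2 and FAU, had changes of 0.046, -0.068 and 0.037, with none called (0 of 3).

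Within the core, structural and disease groups held few calls, beside 51.4% of all genes called at 18 h. The members as a whole held few too, so nothing particular to a group is read from them. The 29 large-subunit core members had a median of 0.059 at 18 h and 1 call (RPL3), and the 20 of the small subunit a median of 0.048 and 1 call (RPS9). Around the peptide exit 6 of 9 listed proteins were tested and 0 called. In the small-subunit head 10 of 14 were tested and 0 called, with all 10 above 0 (median 0.070). Of all 57 members 51 were above 0, a direction that centring on the tested genes turned, with the same shift for every gene. The head group was not centred by itself. Of 19 genes mutated in Diamond-Blackfan anaemia, an inherited failure of red cell production, 14 were tested and 0 called. RPL11, the one tested protein of the 5S RNP that can hold back MDM2, changed by 0.067 (SE 0.058, limma adjusted p = 0.38). Core members with the TOP tract had a median 18 h change of 0.056 (n = 31) and those without it 0.061 (n = 12), with ranges of -0.030 to 0.22 and -0.022 to 0.36 that overlap.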

How the data were processed

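Total RNA was labelled as biotinylated cRNA, per the labels' protocols, and hybridised to Affymetrix U133 Plus 2.0 arrays. The deposited values are linear RMA intensities, between 3.01 and 19000 over 54675 probe sets; the submitters' processing notes name RMA and affy with no version. Quantile normalisation in RMA hides any change in the total mRNA of a cell. The planned analysis assumed log2 values; log2 was taken first. Of the probe sets, 62 were controls, 41091 named 1 gene, 1801 several and 11721 none. Each of 19775 genes was represented by its brightest single-gene probe set, and 13506 with a mean log2 of at least 5 were tested.

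The labels gave each array its line and treatment. An additive model of line and treatment was fitted over 6 arrays (lmFit and eBayes of limma 3.58.1 in R 4.3.3; residual degrees of freedom were 2, and the prior added 3.19), and p-values were adjusted by Benjamini-Hochberg over all tested genes at 0.05. The number of arrays limits the precision. The fit was tested on simulated data, in which most changes as small as those of the members were not called. Start-site windows came from RefSeq (GRCh38.p14), read with Python 3.11.15 and pandas 2.3.3. The members, lists and tests were chosen with earlier results of these data known. Members named with values in every array are those called in any contrast, the 6 highest and 6 lowest per contrast, and the paralogues outside chromosome Y; single probe sets other than the brightest were named after their values were seen, as were GRWD1, LARP1, MTOR and TSC2. Alternatives changed the filter, the probe set per gene, the variance prior, the centring, the size required, the arrays fitted and the model terms.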

Additional observations from a re-analysis of the deposited data

Results flagged for a closer look

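RPL39L, a dim paralogue, stood out because the lines moved in opposite directions. At 18 h it changed by -0.15 log2 units in KO/LacZ cells and by 0.10 in KO/eIF4B cells, each on 1 array against 1 vehicle array, at a mean level of 6.86. The difference at 18 h by itself was not tested; the line-by-drug term shared by both times was -0.27 (SE 0.14, limma adjusted p = 1). At 6 h the changes were -0.29 in KO/LacZ cells and 0.0031 in KO/eIF4B cells.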

How the results depend on the processing

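The counts of called members moved with the variance estimate and the probe set, and at 6 h and 18 h the share of members called stayed below that of all genes in each setting named here. At 18 h against vehicle, 5 were called, and 2 after centring, 0 beyond 0.5 log2 units and 22 with an intensity prior. The count was 12 with the median of probe sets and 2 with no line term. It was 8 of 30 without s or x suffixes and 20 of 110 probe sets in the fit over all sets. Of all genes or probe sets 51.4%, 52.8%, 11.5%, 54.1%, 51.8%, 40.6%, 48.8% and 47.3% were called in these settings. At 18 h against 6 h, 3 were called, and 1, 0, 17, 7, 0, 6 of 30 and 12 of 110 in that order. Of all genes or probe sets 34.0%, 36.8%, 1.78%, 39.2%, 33.4%, 20.2%, 31.7% and 29.2% were called. With no filter or with only the 4 arrays compared 0 members were called, beside 18.8% and 25.9% of all genes. At 6 h, 0 were called, and 1 with the intensity prior, 2 with the median of sets, 4 without suffixes and 4 over all sets. Of all genes or probe sets 16.2%, 22.9%, 15.7%, 16.4% and 13.2% were called. Between the lines 0 were called, and 3, 4 of 57, 4 of 30 and 4 of 110 in that order, and 1 with a mean of at least 6; of all genes 8.66%, 2.84%, 3.69%, 1.35% and 4.88% were called. Centring shifts every gene alike within a contrast. Medians after it were -0.0421 at 18 h, -0.0517 for 18 h against 6 h and 0.0044 at 6 h. They were -0.0169 between the lines and 0.0207 for the shared line-by-drug term. With the median of sets they were 0.0737, 0.0699, 0.0102 and 0.0271 for the first 4. Without suffixes they were 0.1058, 0.0739, 0.012, 0.0628 and -0.017. The median was 0.0578 at 18 h with a mean of at least 6 and 0.0071 at 6 h with no filter. The other 35 values kept their side of the threshold and stayed within 1.5 times the count or within the spread between pairs of arrays. Causes were not tested. With 1 array per line and treatment no replicate could be left out; the additive model already compares lines within treatments and treatments within lines. The fit over all probe sets, and the centring of it and of the comparison lists, were chosen after seeing the data. The number of arrays, which leaves 2 residual degrees of freedom, limits what small changes can show; the part of signal near the top of the range was not tested.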
